A study of Papio anubis with 18 samples.

Results

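Of the 29475 genes counted in pluripotent cells of the olive baboon (Papio anubis), 4 are described here: ENSPANG00000032398, ENSPANG00000023193, ENSPANG00000015002 and ENSPANG00000023597. They are listed members, selected by their distance between the 2 embryonic stem cell (ESC) lines, B4 and B15, so their levels in those lines are a description and were not tested. The first pair was far lower in B15 than in B4, and the second pair far higher. The stated rule of that choice does not name a difference involving the 2 induced pluripotent stem cell (iPSC) lines, 160-2 and M14939#3. Earlier results of these data were known when it was made, so the iPSC values may not be independent of it. The question followed here is which ESC line each iPSC line resembled for each gene. In 160-2 the first pair was near the B4 level and the second pair near the B15 level. In M14939#3 the first pair was below the mean B4 level, but far nearer to it than to the B15 level. In the same line ENSPANG00000015002 lay between the ESC lines, and ENSPANG00000023597 lay nearer to B15.

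ESC lines are derived from early embryos, and iPSC lines from somatic cells reprogrammed to a state that resembles that of an embryo's pluripotent cells. Lines of either kind can form the tissues of the body. They come from different animals and derivations, and lines made in the same way are known to differ in the expression of individual genes. The files do not pair the identifiers with names, so what these 4 genes encode is not stated.

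Per the labels, all 4 lines were established earlier and kept on a feeder layer in medium made for human pluripotent stem cells, and no treatment is listed. Each line is 1 derivation, represented by 3 RNA-seq libraries (12 in all) whose culture of origin is not given, so a p-value here sets a difference against a spread among a line's libraries that may be technical. RNA from feeder cells and the pluripotent state of the lines could not be checked by markers, because no identifier could be matched to a symbol. The shallowest library, ESC B4 replicate 2, holds 12049925 counts and the deepest, ESC B15 replicate 1, holds 62634176. Values are in CPM, counts scaled to a fixed library total, which are not corrected for gene length, so the levels of different genes are not compared. Of the libraries, 6 were run on 1 lane and 6 on 2 lanes. The labels also give each library a number, 16 to 84, written behind a p and not explained there.

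The first pair was almost absent from ESC B15 and present in the other 3 lines. ENSPANG00000032398 had 20.6, 6.64 and 30.4 CPM in replicates 1 to 3 of ESC B4, and 0.016, 0 and 0.041 CPM in those of ESC B15, which held 2 counts in all. It had 13.6, 16.6 and 13.1 CPM in iPSC 160-2, and 8.78, 9.10 and 9.74 CPM in iPSC M14939#3. Every library of either iPSC line lay far above all B15 libraries and within the range of the B4 libraries, though only because of ESC B4 replicate 2: without it, all 6 iPSC libraries lay below that range. In ESC B15 replicate 2, where no count was recorded, a count of 0 allows a level of up to 0.146 CPM (3 counts, counting error only).

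ENSPANG00000023193 followed the same course. Its levels were 40.1, 12 and 41.9 CPM in ESC B4, and 0.096, 0.049 and 0.083 CPM in ESC B15, from 6, 1 and 2 counts. It had 28.1, 24.8 and 21 CPM in iPSC 160-2 and 13.3, 20.7 and 13.2 CPM in iPSC M14939#3. Again each iPSC library fell inside the B4 range in CPM with ESC B4 replicate 2 and below it without. When also scaled for the make-up of a library (TMM factors), M14939#3 replicate 1, at 3.665 log2 CPM, lay just below ESC B4 replicate 2, at 3.672. That library is the shallowest of the 12: the highest B4 library exceeded it 4.58-fold for ENSPANG00000032398 and 3.48-fold for ENSPANG00000023193. Within the iPSC lines, the highest library exceeded the lowest by at most 1.56-fold for these genes. Between the ESC lines, all 4 genes had libraries that did not overlap, as did 9.1% of the 17106 tested genes (4.76% with B15 lower). The choice of the genes fixed this count.

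The second pair had its low level in ESC B4. ENSPANG00000015002 had 5.71, 3.32 and 4.95 CPM in ESC B4 and 119, 66.5 and 135 CPM in ESC B15. It had 101, 132 and 123 CPM in iPSC 160-2, but 14.9, 15.1 and 29.6 CPM in iPSC M14939#3. In CPM the 160-2 libraries thus lay inside the B15 range. Those of M14939#3 lay above all B4 and below all B15 libraries, in a gap that no other library entered. ESC B15 replicate 2, the lowest of its line, has a TMM factor of 0.779, the lowest of the 12. This scaling, which adjusts for the make-up of a library, raises its level relative to the CPM. So scaled, 160-2 replicate 2 lay just above the highest B15 library, at 7.11 against 7.05 log2 CPM.

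ENSPANG00000023597 was scarce in ESC B4, with 0.247, 0.083 and 0.059 CPM from 7, 1 and 2 counts. It had 2.83, 2.86 and 10.5 CPM in ESC B15. In iPSC 160-2 it reached 6.94, 9.92 and 17.1 CPM, overlapping B15 and extending above it. In iPSC M14939#3 it had 1.30, 1.26 and 4.50 CPM, with replicate 3 inside the B15 range and the other libraries between the ESC lines. Replicate 3 was the highest library of ESC B15, of iPSC 160-2 and of iPSC M14939#3, and the lowest of ESC B4.

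**Figure D1:**
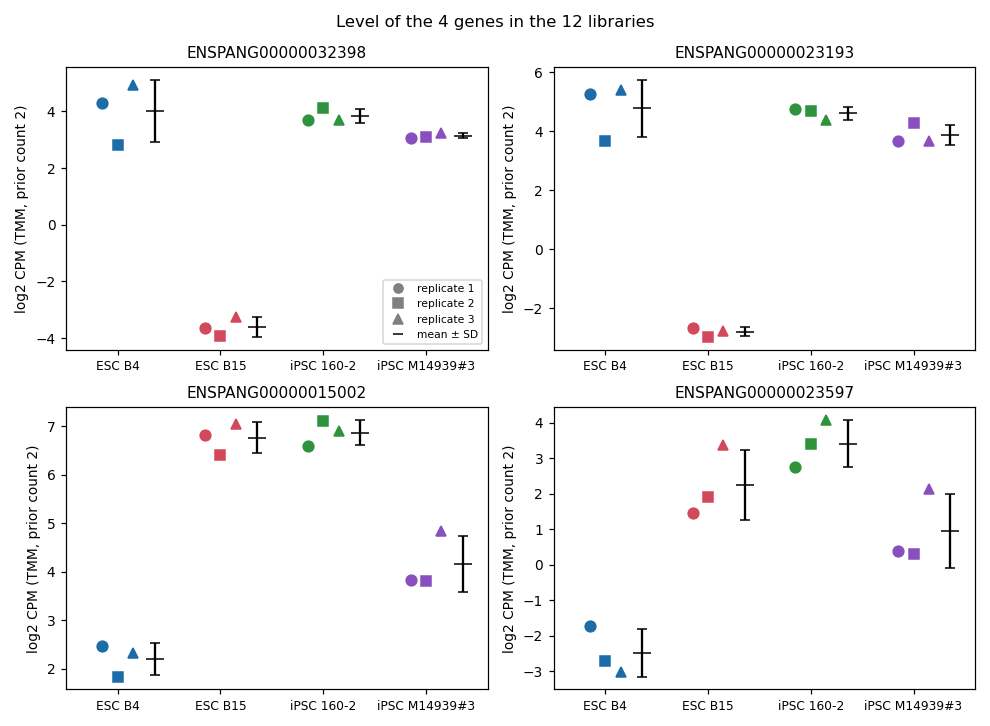
Level of each gene as log2 CPM (scaled by TMM factors, prior count 2; vertical axis) in the 12 libraries, by line (horizontal axis); symbols are replicates and black bars the mean ± SD of 3 libraries. The upper genes drop only in ESC B15; of the lower genes, both are lowest in ESC B4, and iPSC M14939#3 lies under iPSC 160-2.

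The order of the lines by mean CPM was the same within each pair. For ENSPANG00000032398 and ENSPANG00000023193 it ran from ESC B4 through iPSC 160-2 and iPSC M14939#3 to ESC B15. The B4 and 160-2 libraries overlapped for both genes, through ESC B4 replicate 2 alone, while the other neighbours in this order did not. For ENSPANG00000015002 and ENSPANG00000023597 it ran from iPSC 160-2 through ESC B15 and iPSC M14939#3 to ESC B4. The order of 160-2 and B15 is not settled for ENSPANG00000015002: the ratio of mean CPM was 1.11, and the edgeR fit given below put 160-2 slightly under B15. Here 160-2 and B15 overlapped for both genes, B15 and M14939#3 overlapped for ENSPANG00000023597 alone, and the M14939#3 and B4 libraries overlapped for neither.

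To state which ESC line an iPSC line resembled, the distance between mean log2 CPM values was taken to B4 and to B15. For ENSPANG00000032398, iPSC 160-2 lay 0.17 from B4 and 7.44 from B15 on the log2 scale, and iPSC M14939#3 lay 0.88 from B4 and 6.74 from B15. For ENSPANG00000023193 iPSC 160-2 lay 0.16 from B4 and 7.41 from B15, and M14939#3 lay 0.90 from B4 and 6.68 from B15. Both iPSC lines were therefore nearer to B4 for the first pair, as was each of their libraries taken singly. Without ESC B4 replicate 2 the B4 mean was higher, so both iPSC lines lay further below it. They stayed nearer to B4: the distance to B15 exceeded that to B4 by 6.67 and 6.70 in 160-2 and by 5.26 and 5.23 in M14939#3 (log2). The distances to B15 rest on few counts there and depend on the prior count of 2. A ratio of scaled counts needs no prior count: ENSPANG00000032398 was 771-fold higher in 160-2 than in B15 (95% counting interval 213 to 6374) and 464-fold higher in M14939#3 than in B15 (128 to 3838).

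For the second pair the iPSC lines parted. With ENSPANG00000015002, iPSC 160-2 lay 0.11 from B15 and 4.67 from B4. iPSC M14939#3 was at nearly the middle, 1.96 from B4 and 2.60 from B15, which is 42.9% of the way from the B4 mean to the B15 mean; its replicates 1 and 2 were nearer to B4, and its replicate 3 was nearer to B15. This line therefore resembled neither ESC line closely for this gene. For ENSPANG00000023597, iPSC 160-2 lay 1.16 above B15 and 5.89 above B4, and iPSC M14939#3 lay 1.30 from B15 and 3.43 from B4, nearer to B15 in all 3 libraries. Replicates 1 and 2 of M14939#3 were only a little past the midpoint, at 60.7% and 59.1% of the way to B15, and replicate 3 was at 97.7%. Without replicate 3 the excess of the distance to B4 over that to B15 was 0.94 on the log2 scale, against 2.13 with it.

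**Figure D2:**
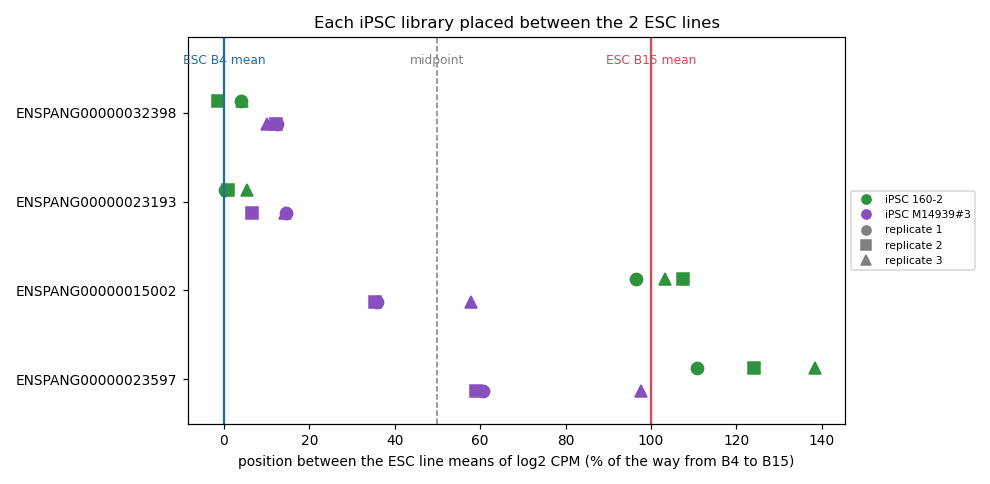
Position of each iPSC library between the mean log2 CPM of ESC B4 (0%) and of ESC B15 (100%; horizontal axis) for each gene (vertical axis), with colours for the iPSC line and symbols for the replicate. The first pair sits near B4 in 160-2 and at 6.64% to 14.6% in M14939#3. ENSPANG00000015002 sits near B15 in 160-2 and near the middle in M14939#3. ENSPANG00000023597 sits at or past B15 in 160-2 and at 59.1% to 97.7% in M14939#3.

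The differences behind these distances, estimated in an edgeR fit of all 12 libraries, are given with their 95% intervals and without a test, because the ESC values chose the genes. Relative to B4, iPSC 160-2 differed by -0.50 (interval -1.26 to 0.26) for ENSPANG00000032398 and by -0.33 (-1.09 to 0.42) for ENSPANG00000023193 on the log2 scale. iPSC M14939#3 differed from B4 by -1.21 (-1.98 to -0.44) and by -1.06 (-1.82 to -0.29). Both iPSC lines were thus below the B4 estimate in these genes, M14939#3 further than 160-2, while ESC B4 replicate 2 alone was below every M14939#3 library in CPM. Relative to B15, ENSPANG00000015002 differed in iPSC 160-2 by -0.03 (-0.58 to 0.52) and in iPSC M14939#3 by -2.69 (-3.28 to -2.10), and the latter was above B4 by 1.86 (1.27 to 2.46). ENSPANG00000023597 differed from B15 by 0.79 (-0.22 to 1.81) in iPSC 160-2 and by -1.55 (-2.62 to -0.49) in iPSC M14939#3, which was above B4 by 3.64 (2.17 to 5.18).

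The iPSC lines were then compared with each other, a contrast that the stated rule for choosing the genes does not name. ENSPANG00000015002 was lower in iPSC M14939#3, at 19.8 ± 8.4 CPM, than in iPSC 160-2, at 119 ± 16 CPM (SD, n = 3 each). It fell by 2.66 (log2; SE 0.27), a 6.31-fold difference, at an adjusted p = 6.64e-05 in the quasi-likelihood test of edgeR, with Benjamini-Hochberg adjustment across the 17106 tested genes. ENSPANG00000023597, at 2.35 ± 1.85 CPM in M14939#3 and 11.3 ± 5.2 CPM in 160-2 (SD, n = 3 each), fell by 2.35 (SE 0.49, edgeR adjusted p = 0.0122), a 5.08-fold difference. Of the 4 genes, 2 thus passed the threshold of 0.05, both lower in M14939#3, where 3.37% of all tested genes were called lower, 5.48% higher and 8.84% in either direction. The call for ENSPANG00000023597 was lost without iPSC 160-2 replicate 3 (edgeR adjusted p = 0.0540), without iPSC M14939#3 replicate 1 (0.0524) or replicate 2 (0.0521), and without a term for the library set (0.0503), with adjusted p from 2.28e-07 to 0.530 over its 20 alternatives in edgeR and DESeq2.

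The first pair did not pass this test. ENSPANG00000032398 had 9.21 ± 0.49 CPM in M14939#3 and 14.4 ± 1.9 CPM in 160-2, a log2 difference of -0.71 (95% interval -1.47 to 0.05, edgeR adjusted p = 0.215; SD, n = 3 each). ENSPANG00000023193 had 15.7 ± 4.3 and 24.7 ± 3.6 CPM, a log2 difference of -0.72 (-1.48 to 0.04, edgeR adjusted p = 0.207; SD, n = 3 each). Each interval ends just above 0, so a lower level in M14939#3 was not resolved for this pair. In a fit of the 6 iPSC libraries alone, ENSPANG00000023193 passed the threshold (-0.75, edgeR adjusted p = 0.0437). For all 4 genes, each M14939#3 library lay below each 160-2 library in CPM, as was so for 12.9% of all tested genes (30.5% counting either direction); with 3 libraries against 3, an exact two-sided permutation test cannot give a p below 0.1, and it gave 0.1 for each gene.

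Within lines, the genes were set against the library set (run on 1 or 2 lanes) and against log2 of the number behind the p. None of the 4 passed the edgeR test for either. The set was called in 6.51% of all tested genes and the number in 0.52%, with 0.076% rising and 0.444% falling with it. At an unadjusted p under 0.05, ENSPANG00000023597 alone was past it for the set, and it and ENSPANG00000015002 for the number. So were 3519 of all 17106 tested genes for the set and 2559 for the number. ENSPANG00000023597 had the largest slope of the 4, 1.03 on the log2 scale per doubling of the number (SE 0.26, edgeR adjusted p = 0.0765). It had 2.83 CPM at number 21 and 10.5 at 43 in ESC B15, 6.94 at 25 and 17.1 at 84 in iPSC 160-2, 1.30 at 16 and 4.50 at 40 in iPSC M14939#3, and 0.247 at 16 and 0.059 at 25 in ESC B4. It was thus higher at the highest number than at the lowest in 3 lines and lower in the last, where it rests on 10 counts. Its slope passed the threshold by DESeq2 (1.04, adjusted p = 0.00493), without a filter on low counts (0.99, edgeR adjusted p = 0.0459) and without ESC B4 replicate 3 (1.10, edgeR adjusted p = 0.0440).

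The slope of ENSPANG00000015002 was 0.40 (SE 0.15, edgeR adjusted p = 0.231), and those of ENSPANG00000032398 and ENSPANG00000023193 were 0.24 (SE 0.27, edgeR adjusted p = 0.739) and -0.12 (SE 0.25, edgeR adjusted p = 0.881). The numbers are higher in iPSC 160-2 (25 to 84) than in iPSC M14939#3 (16 to 40), and their part in the difference between these lines was not tested. The 160-2 library at 25 had 6.94 CPM of ENSPANG00000023597 and 101 CPM of ENSPANG00000015002, and the M14939#3 library at 40 had 4.50 and 29.6 CPM. Library set and number overlap, since in each line replicate 3, with the highest number, was among those run on 1 lane.

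**Figure D3:**
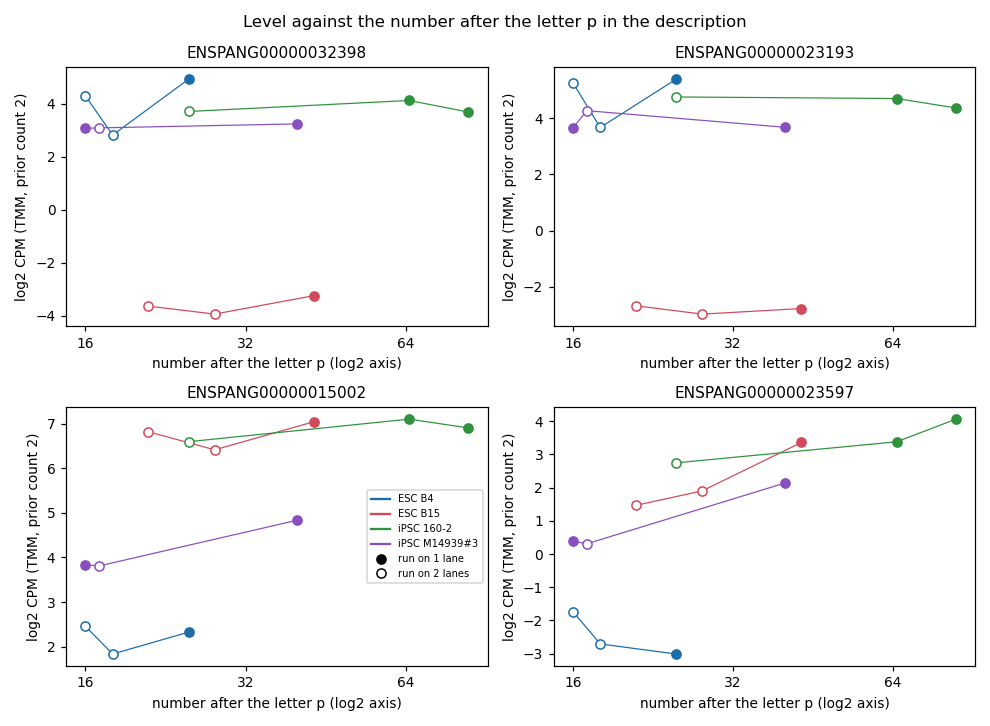
Level of each gene as log2 CPM (TMM, prior count 2; vertical axis) against the number behind the p (horizontal axis, log2 scale), with a colour and thin line for each cell line, and filled points for libraries run on 1 lane. ENSPANG00000023597 is higher at the right end of 3 lines. The ESC B4 line of the upper genes has its lowest point at number 18, which is replicate 2.

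The genes whose course over the 12 libraries was most like that of a member were found by the root mean square difference of log2 CPM, each gene centred on its own mean. For ENSPANG00000032398 and ENSPANG00000023193 the nearest of all tested genes was the other of the pair, at 0.25 on the log2 scale, against a median of 3.26 and 3.23 over all tested genes. The next for both was ENSPANG00000033706, at 0.73 and 0.72. For ENSPANG00000015002 the nearest were ENSPANG00000003872 (0.78) and ENSPANG00000023597 (0.82), and for ENSPANG00000023597 they were ENSPANG00000003872 (0.47) and ENSPANG00000015002 (0.82), against medians of 2.03 and 2.36. The ESC values that chose the members enter this measure, so the likeness within a pair is a description.

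For 3 of the 4 members, but not for ENSPANG00000015002, at least 1 of the 2 genes most like it stood close by in the deposited table. This was noticed after the values were seen. The row before ENSPANG00000015002, ENSPANG00000009700, differed in the same directions but by less. It was 0.98 higher in ESC B15 than in ESC B4 and 1.27 lower in iPSC M14939#3 than in iPSC 160-2 (log2). ENSPANG00000023193 and ENSPANG00000032398 are 2 rows apart, with ENSPANG00000026752 between them and ENSPANG00000033706 in the next row. All 4 of these consecutive rows were lower in each ESC B15 library than in any library of the other lines. This count was largely fixed by choice. ENSPANG00000032398 and ENSPANG00000023193 are members, ENSPANG00000033706 was named for its likeness to them, and ENSPANG00000026752 was picked after its values were seen. The share of all tested genes with this pattern was not computed. Against ESC B4 alone, 4.76% of them had each B15 library lower than each B4 library. ENSPANG00000026752 had 1.49 to 2.96 CPM in ESC B4, 0.986 to 2.17 CPM in iPSC 160-2, 0.617 to 1.47 CPM in iPSC M14939#3 and no count in ESC B15, so that B4 was at least 88.7-fold higher (3 counts over the B15 libraries as the floor). ENSPANG00000033706 had 13.5 to 61.3 CPM in ESC B4, 30.8 to 34.2 in iPSC 160-2, 17.9 to 27.6 in iPSC M14939#3 and 0.146 to 1.04 in ESC B15, where replicate 1 held 65 of the 73 counts.

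The wider surroundings of these rows were also read. Of the 20 rows within 10 of ENSPANG00000032398, 8 were tested and 3 passed the threshold between the ESC lines, which are the 3 just named; 1 of them is a member chosen for that difference, and 0.368% of all tested genes passed. ENSPANG00000003872 is the row after ENSPANG00000023597. It had 0 to 0.211 CPM in ESC B4, 1.65 to 7.30 in ESC B15, 5.49 to 11.7 in iPSC 160-2 and 1 to 3.04 in iPSC M14939#3. It fell by 2.28 in M14939#3 relative to 160-2 (SE 0.45), close to the value of its neighbour. This gene was named for its likeness over all libraries, those of the iPSC lines included, so the similar fall is a description. It was the only 1 of the 16 rows tested around ENSPANG00000023597 that was called between the ESC lines by edgeR. Around ENSPANG00000015002, 0 of 16 tested rows were called by edgeR (1 at an unadjusted p under 0.05) and 1 by DESeq2, and the 2 genes most like it lie 3143 and 3142 rows away. The sources used here do not say how the table is ordered. The libraries do not mark the strand, so if neighbouring genes overlap, their reads cannot be told apart.

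**Figure D4:**
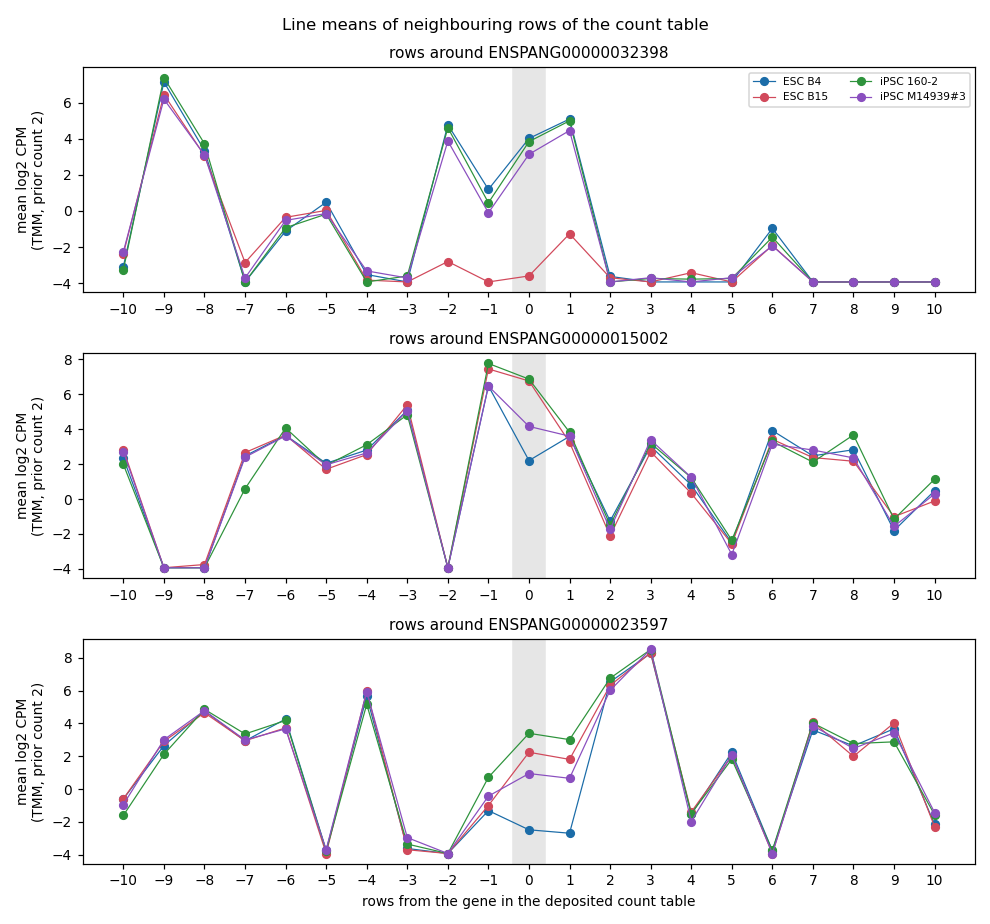
Mean log2 CPM of each line (TMM, prior count 2; vertical axis; colours are lines, each mean over 3 libraries) for the rows within 10 of a gene in the deposited table (horizontal axis; the gene itself is shaded). Around ENSPANG00000032398 the ESC B15 points drop in 4 consecutive rows, from 2 before to 1 after it, and around ENSPANG00000023597 the ESC B4 points drop in that row and the next.

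Of all tested genes, 63 passed the threshold between the ESC lines, and the 4 members, chosen for that difference, are in this list by their choice. For the 34 of these that were lower in B15 (0.199% of all tested genes), iPSC 160-2 was nearer to B4 in 15 and iPSC M14939#3 in 21, and both were nearer to B4 in 13, as for ENSPANG00000032398 and ENSPANG00000023193. For the 29 that were higher in B15 (0.17% of all tested genes), iPSC 160-2 was nearer to B15 in 15 and iPSC M14939#3 in 12, and both were in 7, as for ENSPANG00000023597. In 8 of the 29, 160-2 was nearer to B15 and M14939#3 to B4, as for ENSPANG00000015002. Each of these arrangements also occurred among the genes that moved the opposite way between the ESC lines. Over all 17106 tested genes, both iPSC lines were nearer to B4 in 33.6% and both nearer to B15 in 20%. Taken singly, 160-2 was nearer to B4 in 65.9% of them and M14939#3 in 47.6%. In 2398 of them 160-2 was nearer to B15 and M14939#3 to B4. Of the 63, 22 were also called between the iPSC lines, where 8.84% of all tested genes were; the comparisons share an estimate of the spread.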

How the data were processed

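Per the labels' protocols, cDNA was made with SMART-Seq v4 and turned into libraries with Nextera XT. The authors deposited raw read counts per gene, in 18 columns, each a library on a lane. The submitters' processing notes name featureCounts and edgeR, without role or version. The sources used here name no aligner, genome build or annotation. Columns were matched to samples by the description, and lanes of a library were summed. No identifier matched the RefSeq table (Panubis1.0), so marker lists were not tested, no symbol is given and no sequence is printed.

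CPM uses each library's own total. Tests used edgeR 4.0.16 in R 4.3.3 (TMM, filterByExpr, robust quasi-likelihood fit, adjusted p under 0.05 by Benjamini-Hochberg) on 12 libraries, with line and library set as terms (7 residual degrees of freedom), or line and log2 of the number after p. All 4 members passed the filter. Log2 differences are shrunken by edgeR, while intervals are centred on unshrunken values. Distances use log2 CPM with a prior count of 2. Scaled ratios have exact conditional binomial intervals. DESeq2 1.42.0 was an alternative. The range of ESC B4 without its replicate 2 was an alternative chosen after seeing the data. The code was tested on simulated data. Members and lists were chosen with earlier results of these data known. Beside the members, the text names the 2 genes most like each; ENSPANG00000026752 and ENSPANG00000009700 lie outside this rule, picked once their values had been seen.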

Additional observations from a re-analysis of the deposited data

How the results depend on the processing

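Of the 8 pairs of a gene and an iPSC line, 5 were nearer to ESC B4, and all 8 kept their nearer line under each of the 19 alternatives run (no TMM factors, prior counts 0.5 and 5, medians, line sums, either set, each library left out); the size of the excess moved beyond the library spread in 38 of 152 values. For ENSPANG00000015002 in M14939#3 the distance to B15 exceeded that to B4 by 0.64, and by 0.30 to 1.48 under the alternatives. Between the iPSC lines, all 4 genes stayed lower in M14939#3 under every alternative. Within libraries run on 2 lanes, which leave 1 library per iPSC line, so that its spread is assumed to equal that of the ESC lines, ENSPANG00000015002 (-2.76, edgeR adjusted p = 0.290) and ENSPANG00000023597 (-2.47, adjusted p = 0.530) lost their calls. The exact permutation test cannot pass (-2.71 and -2.45, p = 0.1). ENSPANG00000023597 also lost its call with no term for the library set (-2.32), and leaving out single libraries gave -2.97 to -1.98. ENSPANG00000023193 passed with the iPSC libraries alone (-0.75). For ENSPANG00000023597, the library set passed without a filter on low counts (1.05, edgeR adjusted p = 0.0153), and the slope by DESeq2 (1.04) and without that filter (0.99), with 0.85 to 1.42 when single libraries were left out. The set difference of ENSPANG00000023193, -0.03, changed sign in 6 of 12 such fits (-0.38 to 0.23). The cause was not tested.

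The labels give the lines the same replicate numbers, but same-numbered libraries did not deviate together in all 18 pairs (correlations from -0.223 to 0.441; 8 of 12 libraries correlated best with their own number). With the replicate block, ENSPANG00000015002 fell by 2.70 and ENSPANG00000023597 by 2.46 in M14939#3 (edgeR adjusted p = 1.97e-04 and 0.0103), no call of the 4 genes changed, and the counts went from 1114 to 40 for the set and from 89 to 2 for the slope. By DESeq2 the counts were 2555 (iPSC pair, 1513 by edgeR), 240 (ESC pair, 63), 1836 (set) and 846 (slope), and without a filter 2339, 391, 1811 and 324. With no set term they were 877 and 39 for the pairs, and with the iPSC libraries alone 2512. Within libraries run on 2 lanes they were 0 and 4 by edgeR, with 1403 genes of the iPSC pair at an unadjusted p under 0.05. Leaving out single libraries gave 317 to 2471 (iPSC pair), 26 to 196 (ESC pair), 457 to 1417 (set) and 0 to 554 (slope). The second gene most like each of the first pair changed with a prior count of 0.5, as did 1 of those named for ENSPANG00000015002, for which line means gave neither. Levels under 0.3 CPM rest on at most 7 counts.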

Other observations

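In the row before ENSPANG00000015002 stands ENSPANG00000009700, which was not called between the ESC lines by edgeR. It had 95.2, 70.3 and 106 CPM in ESC B4, 205, 125 and 175 CPM in ESC B15, 211, 229 and 218 CPM in iPSC 160-2 and 78.6, 82.7 and 125 CPM in iPSC M14939#3. Its levels in 160-2 thus stood above all B15 libraries. Its levels in M14939#3 overlapped those in B4, and M14939#3 replicate 3 also reached the lowest B15 library, replicate 2, in CPM. With TMM factors it did not, at 6.92 against 7.33 log2 CPM. ENSPANG00000009700 fell by 1.27 in M14939#3 relative to 160-2 (log2, SE 0.21). Each of the 3 M14939#3 libraries lay below each of the 3 of 160-2, as was so for 12.9% of all tested genes. The gene was picked once its values had been seen, so this is a description and not a test.

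Lanes of a library can be compared for the 4 genes as a measure of sequencing and counting error, which leaves out the preparation of the library. Of 23 pairs of lanes with a count, the 95% counting interval of the ratio of the lanes held 1 in 22, and over the 14 pairs with at least 100 counts the ratio was between 0.853 and 1.21. The remaining pair was ENSPANG00000015002 in ESC B15 replicate 2, with 632 and 739 counts.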
